A study of Arabidopsis thaliana with 2 samples.

Results

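The dehydrin family of *Arabidopsis thaliana* was examined in the aerial parts of plants that overexpress *SsCBF1*, a CBF gene of the wild nightshade *Solanum lycopersicoides*. The choice of genes was made with earlier results of these data known. The family was taken as 10 loci chosen by their locus numbers, out of 33602 genes in the table, without use of their read numbers. They are *COR47* (AT1G20440), *ERD10* (AT1G20450), *ERD14* (AT1G76180), *HIRD11* (AT1G54410), *LTI30* (AT3G50970), *XERO1* (AT3G50980), *RAB18* (AT5G66400) and 3 loci without a name of their own, AT2G21490, AT4G38410 and AT4G39130. The *35S:SsCBF1-11* group was 1 homozygous transgenic line (#11) in the Col-0 background, in which the constitutive CaMV35S promoter drives the transgene in most tissues. The Col-0 group was the untransformed wild type, so that the groups share the Col-0 background and differ in the transgene. Both were unstressed seedlings 4 weeks old, grown side by side at 22°C under days of 16 h and nights of 8 h, and the aerial parts of 20 plants of each genotype were pooled into 1 RNA-seq library. The 2 libraries hold 6669454 (*35S:SsCBF1-11*) and 9120358 (Col-0) reads assigned to genes. With 1 library each, no difference has a replicate check, and an effect of the transgene cannot be told apart from an effect of this line or of this pool.

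Dehydrins are hydrophilic, largely unfolded proteins that accumulate when plant cells lose water through cold, drought, salt or seed maturation. They carry lysine-rich K-segments that fold into helices on membranes, and many members also have a run of serines or a Y-segment near the N-terminus. In cold, CBF proteins bind the CRT/DRE element, whose core is CCGAC, in front of target genes that include several dehydrins. Abscisic acid acts on others through the ABRE, a G-box-like element with the core ACGTG.

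Of the 4 plentiful dehydrin transcripts, 3 stood higher in the *35S:SsCBF1-11* library than in Col-0, each by less than 2-fold. Those 3 differences were judged against counting error alone. If pools are taken to vary with a coefficient of variation of 0.1, *ERD14* no longer passed an adjusted p under 0.05. With 0.2 none of the 3 did. *HIRD11* and *COR47* were 1.65-fold and 1.78-fold higher, *ERD14* was 1.18-fold higher, and *ERD10*, the neighbour of *COR47* on chromosome 1, differed by no more than counting error. *RAB18*, the classical dehydrin of the abscisic acid response, had fewer reads per library total in *35S:SsCBF1-11*, also within counting error. *LTI30*, a dehydrin named for its induction by low temperature, was near the detection limit in both libraries, and the other 4 members had between 0 and 3 reads.

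The sequences in front of the coding regions show which members carry the element that CBF proteins bind, and are given here because the members differ in it. No genome coordinates come with the table. Positions were read from the TAIR10.1 assembly and its RefSeq annotation, while the submitters' notes name TAIR10. Within 1000 bases before the start codon, CCGAC was found on either strand in 7 of the 10 members, against 39.4% of 27444 nuclear protein-coding genes. The longer DRE form ACCGAC was found in 5 members, against 15.6% of the genes, and GCCGAC in 2, against 9.23%. *HIRD11*, *XERO1* and AT4G39130 had no CCGAC in this window. Windows measured from the start codon were chosen after seeing the data, while those at the gene start were planned. The annotated starts of transcription differ widely, from 10 bases (AT4G39130) to 1209 bases (*COR47*) before the start codon. In the window of 250 bases before to 50 bases after the annotated gene start, only 3 members had CCGAC, against 15.0% of all genes. These were *LTI30*, AT2G21490 and AT4G38410, and none of *COR47*, *ERD10*, *ERD14* and *HIRD11* had it there. In the 1000 bases before the gene start 8 members had it, against 37.4%. In that last window *HIRD11* had 2 copies. A match is a string of letters and does not show that a protein binds there.

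Stretches around CCGAC are printed on the strand of the gene, 5′ to 3′, with the copies of CCGAC in capitals, as they read on that strand. The sites of *COR47* (chr1:7085916-7085944) and *ERD10* (chr1:7089365-7089393), both on genes of the minus strand, lie at nearly the same distance from the start codon, 263 and 265 bases. *COR47* has 1 copy there, and *ERD10* has 3 copies that overlap by 1 base each. Both sites are inside the transcribed part of the RefSeq gene models, in which *COR47* starts 1209 bases and *ERD10* 499 bases before the start codon. The authors list 1219 bases for *COR47*, against 2320 exon bases in TAIR10.1, so its start in their gene model may differ. The 3 sites of *LTI30* (chr3:18940530-18940558, chr3:18940553-18940581 and chr3:18940622-18940650, plus strand) lie 278, 255 and 186 bases before its start codon and upstream of its annotated gene start. The nearest site of *RAB18* (chr5:26519343-26519371, minus strand), also inside its gene model, lies 201 bases before the start codon. The site of *ERD14* (chr1:28588540-28588568, minus strand), the only one within 1000 bases before its start codon, lies 894 bases before it.
COR47: gatattcatctaCCGACttcaagaaataa
ERD10: ttcatccaCCGACCGACCGACgtaaaaga
LTI30, farthest site: agttaaaattacGTCGGtcgctaaccact
LTI30, middle site: accactactacaCCGACgtcttacttgcc
LTI30, nearest site: tacttttacgatGTCGGccaacacgtatt
RAB18: cgaaacaccacgCCGACattttctgctgc
ERD14: ctttgtctacatCCGACgttccatttctg

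The ABRE core ACGTG was found in all 10 members within 1000 bases before the start codon, against 54.2% of all genes, where the palindrome CACGTG counts once on each strand. It was found in 8 members in the window of 250 bases before to 50 bases after the gene start, against 26.7% of all genes, and in 8 in the 1000 bases before the gene start, against 54.4%, and *COR47* had 0 copies in both of these windows. Within 1000 bases before the start codon *HIRD11* and *COR47* had 1 copy each, *RAB18* had 4 and *ERD14* had 5. The stretches below, with the core in capitals as it reads on the strand of the gene, show the single copy of *HIRD11* (chr1:20311075-20311103, minus strand), 485 bases before its start codon, and the copies of *RAB18* at 452 bases (chr5:26519594-26519622) and 400 bases (chr5:26519542-26519570).
HIRD11: aatatataatcaCACGTctgagttagttt
RAB18, farthest copy: caacgacgatgtACGTGtgtatgaaaatc
RAB18, next copy: aggaggagcattACGTGtcctgttagcta

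**Figure D1:**
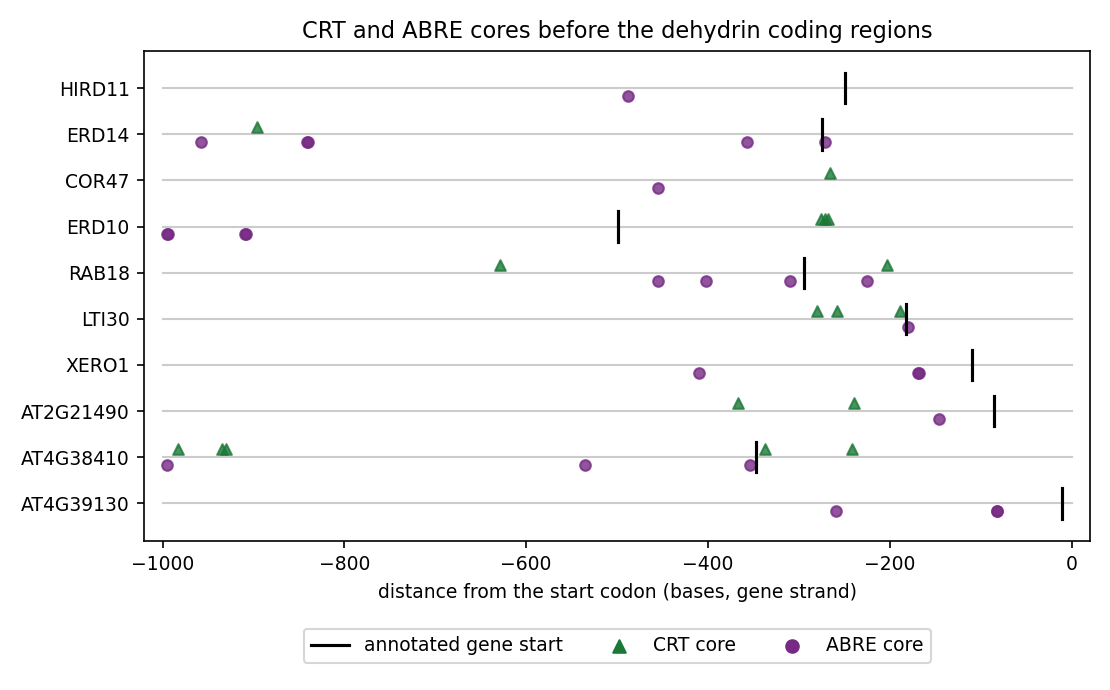
Positions of the CRT core (triangles, CCGAC) and the ABRE core (circles, ACGTG) on either strand in the 1000 bases before the start codon of each dehydrin gene, with the annotated gene start as a black bar; the gene start of COR47, 1209 bases before the start codon, lies outside the plot. COR47 has 1 and ERD10 has 3 overlapping CRT cores about 265 bases before the start codon, whereas HIRD11 has none in this window.

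Of the 10 members, 8 had at least 1 read and were tested among 22319 such genes by a two-sided exact binomial test of the reads against the libraries' shares of all reads, with Benjamini-Hochberg adjustment. The test sets 1 library against the other and leaves out any variation between pools of plants. At the thresholds of the study, which ask for more than 2-fold and an adjusted p under 0.001, 0 dehydrins were higher and 0 lower, against 0.533% and 0.838% of all tested genes. At an adjusted p under 0.05 and any fold, 3 dehydrins were higher and 0 lower, against 4.5% and 7.18% of all tested genes, and 3 members also had an unadjusted p under 0.05. Of the 18443 genes with at least 10 reads, the median log2 ratio was -0.07. The 6 dehydrins with at least 10 reads had a median of 0.48. The test finds small differences only in genes with many reads, and the 3 members called are the 3 with the most reads.

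The acidic dehydrins with a serine run, *COR47*, *ERD10* and *ERD14*, are related proteins that bind to membranes and calcium, and *ERD10* and *ERD14* protect enzymes from aggregation in vitro. They did not move alike. *COR47* had 1032 reads in *35S:SsCBF1-11* and 793 in Col-0, that is 154.7 and 86.9 RPM (reads per 1000000 reads of the library). Its ratio was 1.78 with an exact 95% interval from 1.62 to 1.95 (adjusted p = 2.26e-32, exact binomial test). Intervals of ratios here cover counting error only. The *ERD10* gene had 647 reads in *35S:SsCBF1-11* and 846 in Col-0, which is 97.0 and 92.8 RPM. Its ratio was 1.05 (0.943 to 1.16; adjusted p = 0.760, exact binomial test), so that the interval leaves room for a level up to 1.16-fold higher or slightly lower. *ERD14*, the member with the most reads in Col-0 and over both libraries, had 2056 in *35S:SsCBF1-11* and 2388 in Col-0, or 308.3 and 261.8 RPM. The ratio of *ERD14* was 1.18 (1.11 to 1.25; adjusted p = 2.14e-06, exact binomial test). Of the 11606 genes with at least 100 reads, 15.3% had a larger ratio than *ERD14* and 33.6% a larger one than *ERD10*, but 0.999% a larger one than *COR47*.

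*HIRD11*, annotated as a KS-type dehydrin that limits reactive oxygen species formed with copper, had 2160 reads in *35S:SsCBF1-11* and 1785 in Col-0. This is 323.9 and 195.7 RPM, a ratio of 1.65 (1.55 to 1.76; adjusted p = 1.09e-53, exact binomial test). A larger ratio was found in 1.46% of the genes with at least 100 reads. Among all genes with reads, *HIRD11* ranked 170th by RPKM in *35S:SsCBF1-11* and 286th in Col-0.

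The 3 calls rest on the assumption that pools of one genotype differ by counting error alone. If pools are taken to vary with a coefficient of variation of 0.1 (edgeR's exact test), *COR47* (adjusted p = 0.0114) and *HIRD11* (adjusted p = 0.0360) stayed under 0.05, but *ERD14* did not (adjusted p = 0.974), and with 0.2 none of the 3 did (adjusted p = 1 for each).

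Markers of leaf and anther also differed between the libraries. All 6 leaf markers examined, such as the Rubisco small subunit gene *RBCS1A* and *LHCB1.1*, were higher at an adjusted p under 0.05, by 1.09-fold (*RCA*) to 1.56-fold (*LHCB1.1*), with sums of 39094 RPM in *35S:SsCBF1-11* and 33338 in Col-0. Of all tested genes, 4.5% were higher at this threshold. The leaf markers had from 8744 and 8703 reads (*PSAD1*) to 112764 and 134636 (*RBCS1A*) in *35S:SsCBF1-11* and Col-0. With so many reads the test finds small differences too. The 8 markers of anthers and the pollen coat had 0 reads in *35S:SsCBF1-11* and 279 in Col-0, with *MYB80* at 0 in both. At the study's thresholds 3 of them were lower, against 0.838% of all tested genes. They were *GRP17*, *ATA27* and *ATA7*, with 123, 103 and 29 reads in Col-0. The paper reports late flowering of this transgenic line, shown in plants of the same age as these pools. Whether the pools differed in stage or in the flowers they held was not tested. The part of the marker differences in the dehydrin ratios was not tested either. More cells of a type and more RNA per cell cannot be told apart in such pools.

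The remaining named members are linked to abscisic acid, seeds or severe cold. *RAB18*, a Y-segment dehydrin of abscisic acid-treated leaves, guard cells and seeds, had 55 reads in *35S:SsCBF1-11* and 93 in Col-0, or 8.25 and 10.2 RPM. Its ratio was 0.809 (0.569 to 1.14; adjusted p = 0.613, exact binomial test), an interval that spans both a lower and a slightly higher level. The annotated gene model of *RAB18* overlaps AT5G66410 on the opposite strand by 11 bases, and the strand setting of the counting is not given in the sources used here. *LTI30*, which consists of K-segments and assembles membranes in vitro, had 7 reads in *35S:SsCBF1-11* and 3 in Col-0. Its ratio of 3.19 had a counting interval of 0.728 to 19.1 (adjusted p = 0.386, exact binomial test), and a change was not detectable at this depth. *XERO1*, which follows *LTI30* on chromosome 3 after 313 bases, had 0 reads in *35S:SsCBF1-11* and 1 in Col-0.

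AT4G38410 had 0 reads in *35S:SsCBF1-11* and 3 in Col-0, and AT2G21490 and AT4G39130 had 0 in both libraries. A count of 0 allows up to 3 reads, so that no fold is given for these members. Of 11 genes for seed storage proteins, oleosins and late embryogenesis proteins, 9 were at 0 in both libraries, among them *EM1*, *EM6* and *OLEO1*, and the sum was 0 reads in *35S:SsCBF1-11* and 3 in Col-0.

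**Figure D2:**
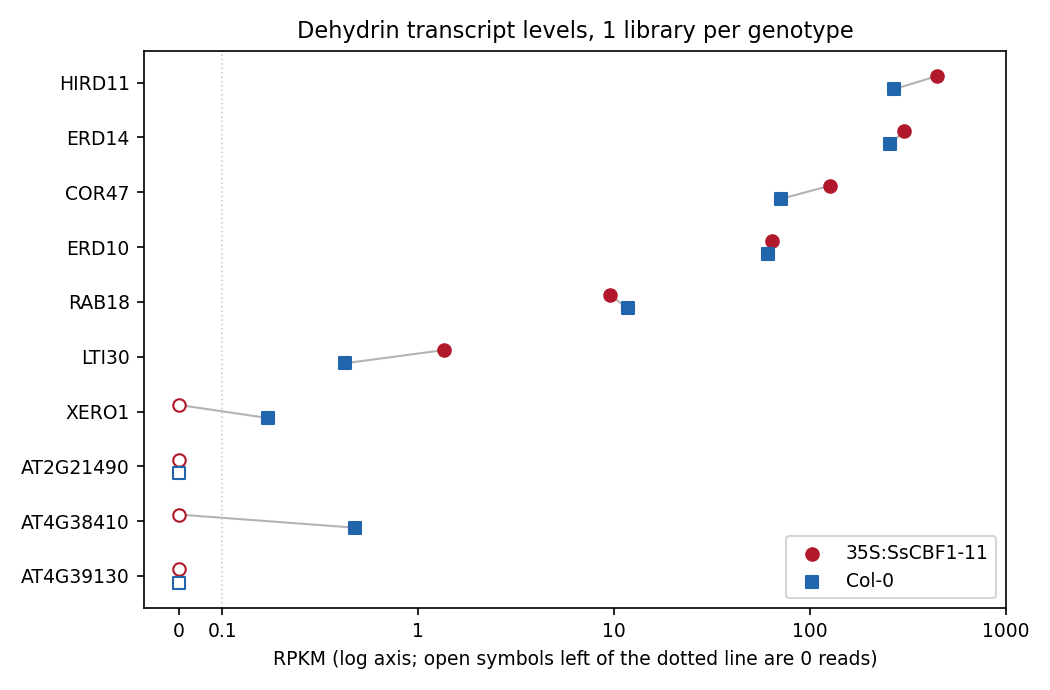
RPKM of the 10 dehydrins (log axis) in the 35S:SsCBF1-11 library (circles) and the Col-0 library (squares), 1 library each with no error bars; open symbols are 0 reads. HIRD11, ERD14, COR47 and ERD10 lie between 64.1 and 444.9 RPKM in 35S:SsCBF1-11 and between 61.3 and 268.8 RPKM in Col-0, and the other members lie at 11.8 RPKM or below in both.

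Compared per length, in RPKM, the order of the 5 most abundant members by the authors' lengths was *HIRD11*, *ERD14*, *COR47*, *ERD10* and *RAB18* in both libraries, but the distances changed. *HIRD11* and *ERD14* stood at 444.9 and 302.8 RPKM in *35S:SsCBF1-11* (*HIRD11* 1.47-fold above *ERD14*, 1.38 to 1.56). In Col-0 they stood at 268.8 and 257.2 RPKM, and the ratio of *HIRD11* to *ERD14*, 1.05 (0.983 to 1.11), was within counting error. *COR47* and *ERD10* stood at 126.9 and 64.1 RPKM in *35S:SsCBF1-11* and at 71.3 and 61.3 RPKM in Col-0. *RAB18* stood at 9.54 RPKM in *35S:SsCBF1-11* and 11.8 RPKM in Col-0, and *LTI30* at 1.35 and 0.423 RPKM. The order depends on these lengths, since the listed 1219 bases of *COR47* and 728 bases of *HIRD11* are fewer than the 2320 and 1113 bases of their exons in TAIR10.1. Per 1000 exon bases of TAIR10.1, *HIRD11* stayed above *ERD14* in *35S:SsCBF1-11* (1.12-fold, 1.05 to 1.19), but *ERD14* was above *HIRD11* in Col-0 (1.26-fold, 1.18 to 1.34). Likewise *COR47* stayed above *ERD10* in *35S:SsCBF1-11* (1.12-fold, 1.01 to 1.23), but *ERD10* was above *COR47* in Col-0 (1.52-fold, 1.38 to 1.68). The authors' counts may not cover all of these exon bases, since their listed lengths are shorter and the counting rule is not given. The order within these pairs in Col-0 therefore stays undecided.

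The family as a whole was carried by these members. All 10 dehydrins summed to 893.2 RPM in *35S:SsCBF1-11* and 648.2 in Col-0, a ratio of 1.38 (1.33 to 1.43), and the 4 most abundant ones held 98.96% and 98.3% of these reads. Without *ERD14*, the member with the most reads over both libraries, the ratio was 1.51 (1.45 to 1.58), and without *HIRD11*, which had the most in *35S:SsCBF1-11*, it was 1.26 (1.20 to 1.32). By the authors' lengths, *HIRD11* made up 46.8% of the family's summed RPKM in *35S:SsCBF1-11* and 40.0% in Col-0, and *COR47* made up 13.4% and 10.6%. The share of *ERD14* was 31.9% in *35S:SsCBF1-11* and 38.3% in Col-0, and that of *ERD10* was 6.75% and 9.12%.

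Ratios between members within a library do not depend on how the libraries are scaled. All 15 pairs of the 6 members with at least 10 reads were therefore compared by Fisher's exact test (two-sided, Benjamini-Hochberg over the pairs). This test also sets 1 library against the other, and its p-values and intervals cover counting error only. The pairs were not tested with an assumed variation between pools. The neighbours *COR47* and *ERD10*, separated by 1029 bases, parted. There were 1.60 *COR47* reads per *ERD10* read in *35S:SsCBF1-11* and 0.937 in Col-0, a 1.70-fold difference (1.48 to 1.96; adjusted p = 2.76e-13, Fisher's exact test). *COR47* also differed from *ERD14*, by 1.51-fold (1.35 to 1.69; adjusted p = 6.02e-13, Fisher's exact test). *HIRD11* moved away from *ERD14* by 1.41-fold (1.29 to 1.53; adjusted p = 1.40e-13, Fisher's exact test) and from *ERD10* by 1.58-fold (1.40 to 1.79; adjusted p = 2.76e-13, Fisher's exact test).

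In all, 6 of the 15 pairs had an adjusted p under 0.05, and each of these set *COR47* or *HIRD11* above *ERD10*, *ERD14* or *RAB18*. With the 5 members of at least 50 reads, 7 of 10 pairs passed, the added one being *ERD14* over *RAB18* (1.46-fold, 1.03 to 2.08; adjusted p = 0.0420 over 10 pairs and 0.0630 over 15, Fisher's exact test). *COR47* and *HIRD11* did not differ from each other beyond counting error (1.08-fold, 0.960 to 1.20; adjusted p = 0.243, Fisher's exact test). The pair of *ERD14* and *ERD10* missed the threshold as well (1.13-fold, 0.999 to 1.27; adjusted p = 0.0849, Fisher's exact test). All 5 pairs with *LTI30*, which rest on its 10 reads, had intervals that reach from below 1 to above 10. None of the 50-base stretches of the members' annotated exons, 2222 for *COR47* and 1526 for *ERD10*, occurs more than once in the TAIR10.1 genome.

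**Figure D3:**
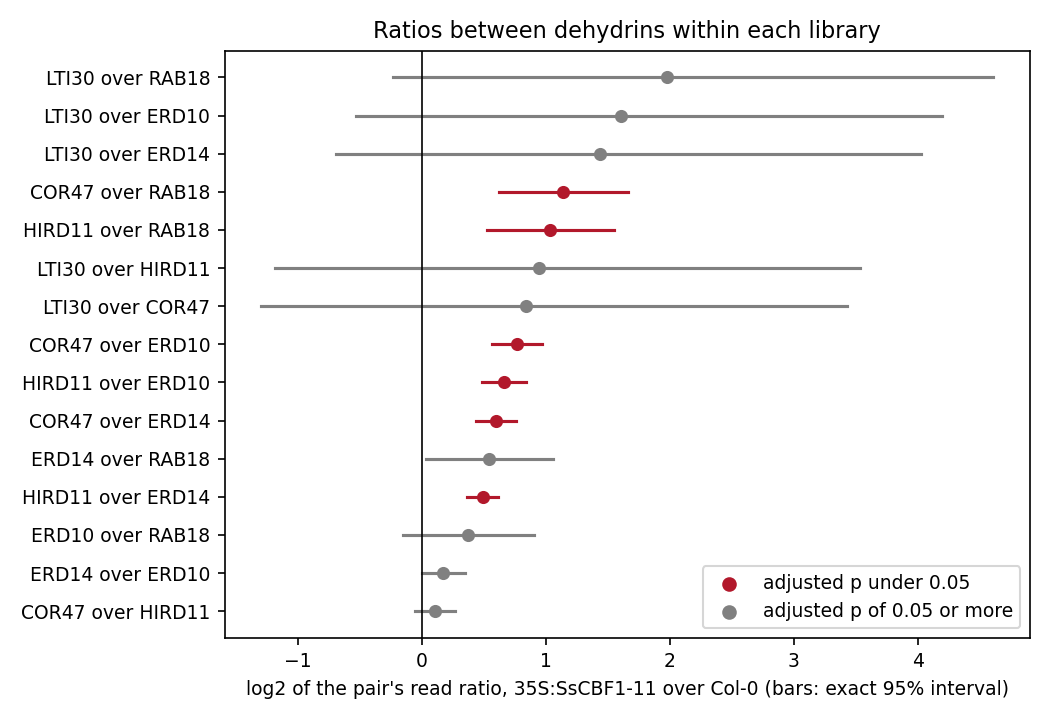
For each of the 15 pairs of dehydrins with at least 10 reads, the log2 of the pair's read ratio in 35S:SsCBF1-11 over that in Col-0, with exact 95% intervals for counting error; red marks an adjusted p under 0.05. The 6 red pairs all have COR47 or HIRD11 on top, and the COR47 over ERD10 pair stands at 0.77.

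Larger ratios than those of the plentiful dehydrins were found among other genes under CBF control. Of 12 CBF regulon genes that are not dehydrins, 6 were higher at the study's thresholds and 10 at an adjusted p under 0.05, none was lower under either rule, and the median log2 ratio was 1.22. Of all tested genes, 0.533% were higher and 0.838% lower at the study's thresholds, and 4.5% and 7.18% at an adjusted p under 0.05. All of the 6 regulon genes past the study's thresholds are in the study's own list of higher genes, taken from the same libraries at the same thresholds. The counts are therefore not independent evidence of the direction of these genes. *COR15A*, which encodes a chloroplast stroma protein that protects membranes in freezing, had 2782 reads in *35S:SsCBF1-11* and 111 in Col-0, and its close copy *COR15B* had 47 and 8. *COR413IM1*, a chloroplast envelope protein gene, had 230 reads in *35S:SsCBF1-11* and 35 in Col-0, and the galactinol synthase gene *GOLS3* had 84 and 5. *KIN2* and *RD29A*, genes of hydrophilic stress proteins, had 717 and 287 reads in *35S:SsCBF1-11* and 336 and 161 in Col-0.

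The log2 ratios of *KIN2* (1.55) and *RD29A* (1.29) were the smallest among the 6. *LEA14* and *COR413PM1*, which had 445 and 474 reads in *35S:SsCBF1-11* and 351 and 474 in Col-0, stood at log2 ratios of 0.79 and 0.45. *COR47* (0.83) lay above both of them and *HIRD11* (0.73) between them. *COR413IM2* (0.73), *ERD7* (0.27) and *KIN1* (-0.03) of this list also lay below *COR47*, and *RAP2.1* (1.16) lay above it.

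Of 14 abscisic acid-responsive genes that are not dehydrins, 2 were higher at an adjusted p under 0.05, 1 of them above 2-fold, and 0 were lower. Of all tested genes, 4.5% were higher and 7.18% lower at this threshold, and 0.533% were higher at the study's thresholds. The median log2 ratio was 0.22 over the 11 genes of the list with at least 10 reads, against -0.07 over all such genes. The 2 higher genes of the list were *RD26*, a NAC factor gene with 93 reads in *35S:SsCBF1-11* and 49 in Col-0, and *RD20*, a caleosin gene with 418 and 383. *RD26*, the one above 2-fold, is also in the study's list of higher genes from these libraries. *RD22*, the gene of a dehydration-induced protein, had 2332 reads in *35S:SsCBF1-11* and 3205 in Col-0, a log2 ratio of -0.0072. The phosphatase genes *HAB1* and *ABI1*, which restrain abscisic acid signalling, had 436 and 263 reads in *35S:SsCBF1-11* and 598 and 308 in Col-0, with log2 ratios of -0.0043 and 0.22. *RAB18*, at a log2 ratio of -0.31, lay below the median of this list.

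The plant's own CBF genes were at or near 0, as is usual in unstressed plants. *CBF1*, *CBF3* and *CBF4* had 0 reads in both libraries, and *CBF2* had 0 in *35S:SsCBF1-11* and 1 in Col-0. *DREB2A* and *DREB2B*, factors of drought and heat, had 1 and 0 reads in *35S:SsCBF1-11* and 4 and 3 in Col-0. *ICE1*, an activator of the CBF genes, had 260 reads in *35S:SsCBF1-11* and 332 in Col-0 (log2 ratio 0.10), and 0 of these 7 genes was called under either rule. Reads of the transgene were not analysed here.

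**Figure D4:**
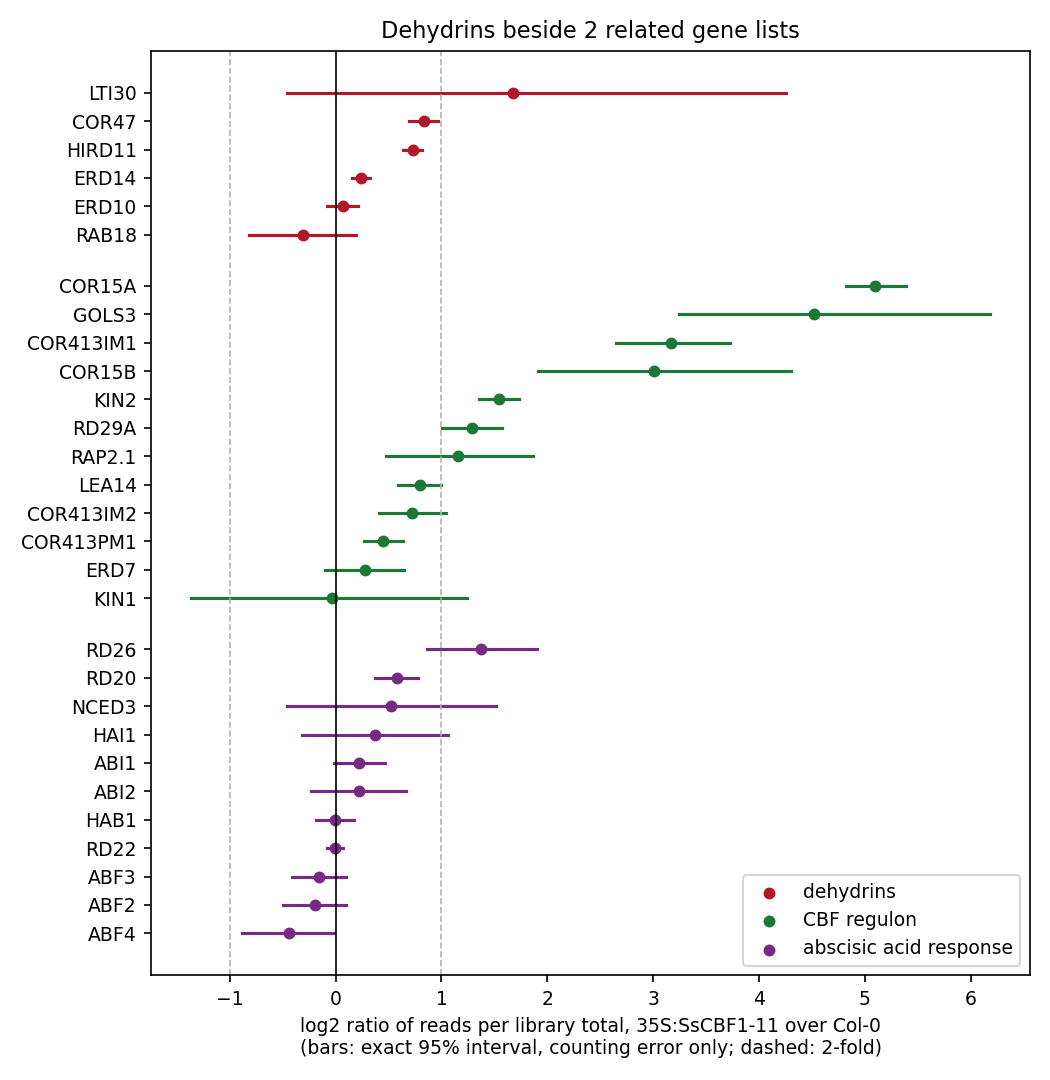
Log2 ratio of reads per library total, 35S:SsCBF1-11 over Col-0, with exact 95% intervals for counting error, for the 6 dehydrins with at least 10 reads, 12 other CBF regulon genes and 11 abscisic acid-responsive genes; dashed lines mark 2-fold. COR47 (0.83) and HIRD11 (0.73) lie below the 2-fold line and below KIN2 (1.55) and RD29A (1.29).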

How the data were processed

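Poly(A) RNA of pooled aerial parts was sequenced by the authors on an Illumina HiSeq system, with 1 library per genotype. The authors deposited a table of read counts per gene model, used here as they stand, and RPKM values per library, which equal reads over listed length and library total (relative tolerance 1e-06) in 100% of genes. The submitters' processing notes name TAIR10 and CASAVA 1.7. For the aligner, counting rule and strand, the sources used here name nothing. The table's own fold, log2 and q-value columns, and the deposited pathway and Gene Ontology lists, hold the authors' comparison and were not used.

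For 22319 genes with reads, a two-sided exact binomial test was run, with Benjamini-Hochberg adjustment and 0.5 reads added for the fold. The procedure was tested on data simulated with counting error alone, which cannot show how it fares when pools vary. Ratios have Clopper-Pearson 95% intervals, pairs conditional exact ones, and a count of 0 stands for up to 3 reads. Intervals and floors cover counting error only, and reads without molecular identifiers are not independent molecules. The members and lists were chosen with earlier results of these data known. All members are named. From the lists of CBF regulon, abscisic acid-responsive and CBF and DREB genes, the 4 with the most reads and those past the study's thresholds are named. Of the marker lists only some genes are named. Other genes were named after their values were seen. Alternatives were other scalings, a minimum of 10 reads, pseudocounts, thresholds and an assumed variation between pools in edgeR's exact test. Python 3.11.15 (numpy 2.4.6, pandas 2.3.3, scipy 1.17.1, matplotlib 3.10.9) and R 4.3.3 (edgeR 4.0.16, DESeq2 1.42.0) were used. Gene positions are those of TAIR10.1, in which 32835 loci of the table were found. A further marker list is not reported here.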

Additional observations from a re-analysis of the deposited data

How the results depend on the processing

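The variation between pools of one genotype cannot be measured with 1 library each, and an assumed one changed the calls most. With a coefficient of variation of 0.1, 64 genes were higher and 82 lower at the study's thresholds (154 and 243 at an adjusted p under 0.05). With 0.2 the counts were 18 and 21 (37 and 44), and with 0.4 they were 2 and 0 (3 and 4), and with 0.2 or 0.4 the count of dehydrins higher was 0. With totals as the scale, 119 genes were higher and 187 lower. At a fold above 1.5 these became 232 and 409, and 2 dehydrins, *COR47* and *HIRD11*, were higher. Genes called higher made up 38.9% of the calls at the study's thresholds, 48.2% with edgeR's TMM and 49.1% with DESeq2's size factors, and at an adjusted p under 0.05 they made up 38.5%, 53.2% and 54.5%. No scaling moved all log2 ratios by more than 0.073. The ratio of the summed dehydrin reads was 1.44 with edgeR's TMM and 1.45 with DESeq2's size factors, and 1.51, 1.26, 1.32 and 1.43 without *ERD14*, *HIRD11*, *COR47* and *ERD10* in turn, the last 3 added after seeing the data. With lengths from TAIR10.1 exons, also added after seeing the data, *ERD14* stood above *HIRD11* and *ERD10* above *COR47* in Col-0. The authors' counts may not cover all of these exon bases. Of the pairs of members, 7 of 10 passed with at least 50 reads and 6 of 15 with at least 10. Under the other scalings and filters, the log2 ratios lay between 0.79 and 0.90 for *COR47*, 0.69 and 0.80 for *HIRD11*, 0.20 and 0.31 for *ERD14*, and 0.03 and 0.14 for *ERD10*, and no member changed its side of the threshold. The median of the CBF and DREB factors was 0.10, resting on *ICE1* alone, and -1.13 with a minimum of 1 read. The number of members with ACGTG was 8 in both windows at the gene start, and 9 and 10 in the 500 and 1000 bases before the start codon. The number with CCGAC was 3 in the window around the gene start, 8 in the 1000 bases before it, and 6 and 7 in the 500 and 1000 bases before the start codon, the start codon windows being chosen after seeing the data. No paired analysis was possible because each genotype has 1 library.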
